A study of Bubalus bubalis with 6 samples.

Results

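Exon-intron circRNAs are circular RNAs to which the authors gave this type from the positions of the junction, with no further definition stated. They were taken as every circRNA that the deposited table marks with this type, and numbered 1145 of 14990 circRNAs (7.64%). The other types were exon (13623), intergenic (112) and intron (110). The circRNAs came from back subcutaneous fat of Chinese buffaloes in a young group (3 animals aged 6 months) and an adult group (3 animals aged 30 months), sequenced as 1 rRNA-depleted library per animal. The labels name no treatment, and age is the difference between the groups that they give. circRNAs are named by the chromosome, start and end of the junction on cattle UMD3.1, since the reads of buffalo were aligned to that genome.

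In back-splicing, a downstream splice donor is joined to an upstream splice acceptor, which closes the RNA into a loop without free ends. Most such loops hold exons and are found in the cytoplasm. Loops that keep an intron between their exons have been described in the nucleus of human cells, where some bind the U1 small nuclear ribonucleoprotein and raise transcription of their own host gene. The files give only the junction, so whether an intron was kept inside any of these circles was not measured.

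The libraries held 10745 to 17680 back-spliced reads and 2807 to 5480 distinct circRNAs, of which 996 to 1548 reads and 241 to 419 circRNAs were exon-intron. The whole class had 7340 reads, or 8.83% of all back-spliced reads. Reads were spread thinly, since 712 of the 1145 were seen in a single library, 416 rested on a single read and 40 were seen in all 6 libraries. The 40 circRNAs seen in all libraries carried 37.5% of the reads of the class. Exon circRNAs were spread much the same way, with 64.7% seen in 1 library against 62.2% of the exon-intron type.

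The exon-intron type took a larger share of the circRNAs of adult fat than of young fat. It made up 7.64%, 7.50% and 7.65% of the distinct circRNAs in the young libraries, in replicate order. For the adult libraries the shares were 8.60%, 8.60% and 8.59%. The groups did not overlap, and the means lay 0.997 percentage points apart (7.60% ± 0.0805 young, 8.59% ± 0.0075 adult, SD, n = 3, exact permutation p = 0.1, adjusted p = 0.1, the smallest that 3 against 3 libraries allow). Each share rests on 241 to 419 exon-intron circRNAs, so the small SDs of 3 libraries do not measure its precision. Drawn down to the depth of the shallowest library, the gap was 0.948 percentage points.

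Of back-spliced reads, the type took 8.06%, 8.11% and 8.43% in the young libraries. It took 9.09%, 9.53% and 9.90% in the adult libraries. Again no adult library reached down to a young one (8.20% ± 0.198 against 9.51% ± 0.406, SD, n = 3, exact permutation p = 0.1). Leaving out the HIPK3 and UBE3A circRNAs, the most read of the type, brought the gap from 1.31 to 0.931 percentage points. In bulk tissue, a change in the number of cells of a type and a change in the RNA per cell cannot be told apart.

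**Figure D1:**
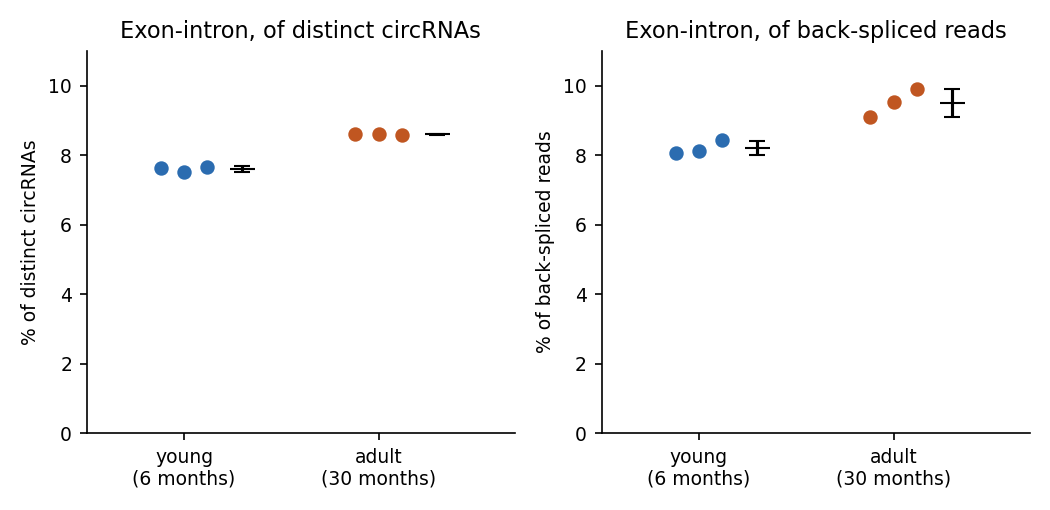
Share of exon-intron circRNAs among the distinct circRNAs (left, %) and the back-spliced reads (right, %) of each library. Points are libraries, bars the mean and SD of 3 libraries, and all adult points (8.59% or more on the left, 9.09% or more on the right) lie above all young points.

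Exon-intron circRNAs spanned longer stretches of the genome than exon circRNAs. The span is the distance from start to end of the junction and includes introns that may be spliced out. Its median per library averaged 17550 ± 2113 bases for exon-intron and 11038 ± 1099 bases for exon circRNAs (SD, n = 6 libraries), and it was longer in 6 of 6 libraries (mean difference 6512 bases, exact sign-flip permutation p = 0.03125, the smallest that 6 libraries allow). Over the whole class, 84 members (7.34%) spanned more than 100000 bases, against 2.16% of exon circRNAs. At the short end both types were alike in count, with 4.45% and 5.18% under 1000 bases. The shortest member, 16:44212794|44212974 of KIF1B, spanned 180 bases, and the longest, 26:35970790|36392156 of ATRNL1, spanned 421366 bases, each in 1 library. Among members in at least 3 libraries, the shortest lay in FER (267 bases), ANKIB1 (277 bases) and KIF27 (384 bases). A member of STAG1 was among the longest of these (213613 bases).

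**Figure D2:**
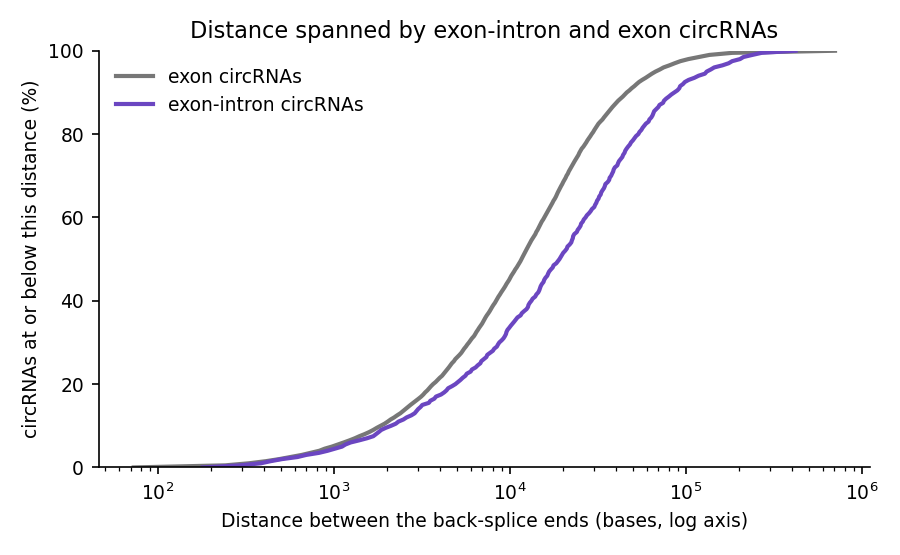
Cumulative share (%) of circRNAs by the distance between their back-splice ends (bases, log axis) for 1145 exon-intron and 13623 exon circRNAs. The exon-intron curve lies to the right, with a median of 19177 bases against 11676 bases.

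Within a library, an exon-intron circRNA had 3.57 ± 0.628 reads on average and an exon circRNA 3.24 ± 0.493 (SD, n = 6, higher in 6 of 6 libraries, exact sign-flip permutation p = 0.03125). This difference rested on 2 circRNAs. Without those of HIPK3 and UBE3A it was −0.0698 reads, and exon-intron circRNAs had fewer reads in 5 of 6 libraries. A circRNA of a library was seen in no other library in 33.6% of exon-intron and 36.7% of exon circRNAs (lower in 6 of 6 libraries, exact permutation p = 0.03125). The table marks 4.97% of exon circRNAs as published before. It marks 0 of the 1145 exon-intron circRNAs, which allows a share of up to 0.262%, and whether the mark was open to this type is not stated.

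The members came from 623 named host genes, and 387 of these (62.1%) gave a single member. Most hosts, 458 of 623, also gave exon circRNAs. The hosts with the most members were TRIP12 (12), an E3 ubiquitin ligase, CNTLN (11), a centriole protein, ZNF148 (10), a zinc finger transcription factor, and DENND4A (10), which activates a Rab GTPase of membrane traffic. KMT2E and KIF27 followed with 9 each, and CEP112, PCM1, PCSK5 and TTBK2 were among those with 8. Their reads did not follow the number of members, with 184 in DENND4A, 156 in TRIP12, 75 in CNTLN and 65 in PCSK5.

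A group of 50 members (4.37%) was assigned to more than 1 gene, which no exon circRNA was. In 30 of them a symbol of the junction named a small RNA gene such as U6, 5S_rRNA or a SNORA or SNORD gene. These small RNA genes often lie inside introns of larger genes. The 50 members held 184 reads, and their median span was 55421.5 bases.

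The most read members were abundant next to exon circRNAs too. The HIPK3 circRNA 15:64704077|64705175 ranked 4 among all 14990 circRNAs with 433 reads, and the UBE3A circRNA 21:2404179|2410197 ranked 5 with 423. Both hosts gave few other circles, with 17 reads of exon circRNAs in HIPK3 and 22 in UBE3A. HIPK3 encodes a protein kinase, and in human cells its well known circRNA consists of a single exon. The buffalo HIPK3 circRNA spanned 1098 bases, and whether it corresponds to the human one was not tested. UBE3A encodes an E3 ubiquitin ligase.

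The HIPK3 circRNA had 29, 37 and 81 reads in young replicates 1 to 3, and 111, 117 and 58 reads in the adult libraries in the same order. After scaling, the lowest adult library stood just above the highest young one (90.5 ± 27.7 young, 171 ± 48.3 adult scaled reads, SD, n = 3). The log2 difference was 0.91 ± 0.33 (SE) and did not pass limma's adjusted p (0.108), while limma with voom, which weights the recovered reads by their precision, called it higher (adjusted p = 0.0244). The host transcript was level, at 128 ± 27.7 FPKM in young and 136 ± 13.7 in adult libraries (log2 difference 0.10, limma adjusted p = 0.783).

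The UBE3A circRNA had 82, 59 and 75 reads in the young and 46, 92 and 69 in the adult libraries. The groups overlapped (log2 difference −0.22, limma adjusted p = 0.723). The next 6 by reads were those of LIFR, a cytokine receptor (150 reads), ORC2, a subunit of the origin recognition complex (127), ARHGAP5 (120), TRIP12 (111), PUM2, an RNA-binding repressor of translation (99), and NECTIN3, a cell adhesion molecule (92). Of these, the groups overlapped in all but NECTIN3. The NECTIN3 circRNA 1:56353788|56392267 had 15, 6 and 4 reads in young and 19, 27 and 21 in adult libraries. Its scaled level was 17.5 ± 12.9 in young and 40.3 ± 3.23 in adult libraries (SD, n = 3, log2 difference 1.43, limma adjusted p = 0.185).

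Age differences were then tested across all 2834 circRNAs with a read in at least 3 libraries, and 251 exon-intron members were among them. The remaining 894 were too sparse. No member was higher and 2 were lower in adults at limma's adjusted p, among them that of RERE, while voom weights on the reads gave 8 higher and 20 lower. Over all 2834 circRNAs tested, limma called 0.106% higher and 0.776% lower, and voom called 68 higher and 187 lower. At an unadjusted p under 0.05, 16 members (6.37%) were higher and 37 (14.7%) lower, against 5.47% and 16.7% of all. Groups did not overlap in 20 members with adults higher (7.97%) and in 40 with adults lower (15.9%), against 6.46% and 18.5% of all. These shares were near the background. Of the 251, 23 had reads in 1 group only and passed through it, 19 in young and 4 in adult libraries, so these had to differ.

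The age differences of exon-intron members had a higher median than those of exon circRNAs. The median log2 difference, adult minus young, was 0.01 over the 251 exon-intron members and −0.37 over the exon circRNAs tested, and −0.34 over all. Adult levels were the higher in 51.4% of exon-intron members and in 41.4% of all circRNAs. With every library scaled to an equal total, which moved the median of all circRNAs to −0.21, the medians were 0.11 and −0.24. Without a filter, both types had a median of −0.43, which is the value of a circRNA with 1 read in young replicate 3 and none elsewhere. That median is thus a tie of single reads, and adult levels were the higher in 44.7% of exon-intron and 39.8% of exon circRNAs. With 1 library left out over the same circRNAs, the median of exon-intron members lay between −0.14 and 0.12 and that of exon circRNAs between −0.39 and −0.25. With the filter redone after leaving out a library, the exon-intron median stayed the higher in all 6 fits, and the exon median was the nearer to 0 without young replicate 1 (0.17 and −0.10) or 3 (0.28 and −0.13). These are descriptions with no test, since circRNAs of a library are not replicates.

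**Figure D3:**
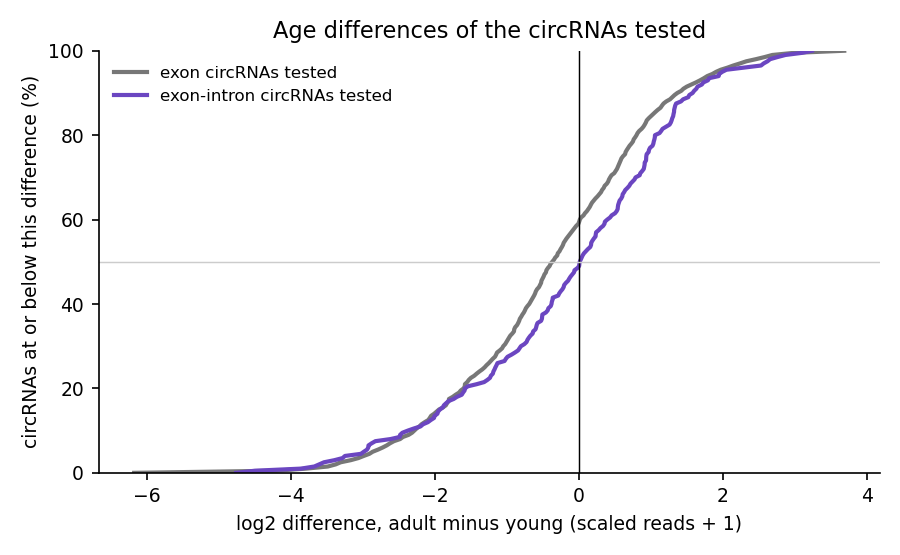
Cumulative share (%) of the circRNAs tested by their log2 difference, adult minus young, for 251 exon-intron circRNAs and the exon circRNAs. The exon-intron curve crosses 50% near 0 (median 0.01) and the exon curve at −0.37.

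RERE encodes a nuclear receptor corepressor. Its circRNA 16:45621313|45621781 spans only 468 bases and had 11, 35 and 25 reads in young and 0, 2 and 0 in adult libraries. Its scaled level fell from 49.7 ± 36.0 to 1.01 ± 1.75 (SD, n = 3, limma adjusted p = 0.0406), and every young library lay above every adult one. Over the same circRNAs this call was lost without young replicate 1, 2 or 3 (adjusted p = 0.0998, 0.0821 and 0.0623), without adult replicate 1 (0.0636) or 3 (0.0540), and also with libraries scaled to an equal total (0.0570) or a pseudocount of 0.5 (0.0625). With the filter redone after leaving out a library, the call was kept in all 6 fits (adjusted p = 0.000639 to 0.0491), and in the 3 without a young library limma's prior degrees of freedom were infinite. The log2 difference was −4.76, and −4.62 with equal totals.

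The other circles of the gene were read in both groups. The exon circRNAs of RERE had 22, 31 and 63 reads in young and 44, 54 and 70 in adult libraries, and their groups overlapped. The exon-intron share of all RERE circles was thereby 41.4% on average in young and 3.32% in adult libraries (exact permutation p = 0.1, adjusted p = 0.4 over 24 hosts). The RERE transcript had the same level in both groups, at 24.8 ± 0.642 and 25.4 ± 1.74 FPKM (SD, n = 3, log2 difference 0.03, limma adjusted p = 0.899).

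Members of UBAP2, which encodes a ubiquitin-associated protein, and LARP4, an RNA-binding protein of mRNA tails, came next among the lower ones (limma adjusted p = 0.0589 each, just outside the threshold, and voom adjusted p = 0.000393 to 0.00545). The UBAP2 circRNA 8:76727588|76759884 had 8, 14 and 24 reads in young and 1, 2 and 0 in adult libraries. A second one, 8:76729461|76759884, had 5, 4 and 13 reads in young and none in adult libraries, so it passed the filter through the young group and had to differ. Both used the same end, and the exon circRNAs of UBAP2, which did not use it, had 6, 1 and 3 reads in young and 10, 16 and 0 in adult libraries. A further member at that end, 8:76695627|76759884, had reads only in adults (0, 4 and 3).

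At 1 end of LARP4, the start that most reads used differed between the groups. The circRNA 5:29636053|29658984 had 17, 7 and 20 reads in young and 0, 3 and 0 in adult libraries. With the other members at this end, 5:29627853|29658984 (0, 0 and 4 in young, 5, 3 and 6 in adult libraries) and 5:29643331|29658984 (0, 0 and 1 in young, 0, 3 and 7 in adult libraries), the end had 17, 7 and 25 reads in young and 5, 9 and 13 in adult libraries. The first start thus took 93.3% ± 11.5 of the reads in young and 11.1% ± 19.2 in adult libraries, with no overlap (SD, n = 3, exact permutation p = 0.1). This end was chosen after its values were seen.

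No member passed limma's adjusted p as higher in adults, and those nearest to it were in DENND5B and DENND4A, whose proteins activate Rab GTPases. Both were called higher by voom (adjusted p = 0.0104 and 0.0195), with a filter of 4 libraries (0.00982 and 0.0119) and with the replicate block (0.0151 and 0.0304). With the filter of 4 libraries limma's prior degrees of freedom were infinite. With the replicate block they were 14225, and same-numbered libraries are not pairs. Of 20 alternative settings, 6 called that of DENND5B and 5 that of DENND4A. With 1 library left out over the same circRNAs, neither was called (limma adjusted p = 0.0623 to 0.147). The DENND5B circRNA 5:78848065|78863041 had 1, 0 and 3 reads in young and 11, 13 and 14 in adult libraries (2.12 ± 2.13 against 23.3 ± 4.84 scaled reads, SD, n = 3, log2 difference 3.24, limma adjusted p = 0.0789). The DENND4A circRNA 10:12581156|12586202 had 3, 2 and 1 reads in young and 13, 21 and 15 in adult libraries (4.29 ± 2.54 against 29.3 ± 3.59, log2 difference 2.66, limma adjusted p = 0.0792). In both, the adult libraries lay close together and well above the young ones.

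The DENND4A circle shares its start with 10:12581156|12596006, the most read member of the gene, which had 10, 8 and 10 reads in young and 25, 13 and 22 in adult libraries. Of the reads of both, the shorter circle took 17.4% ± 7.35 in young and 45.5% ± 14.4 in adult libraries, without overlap (SD, n = 3, exact permutation p = 0.1). This pair was chosen after its values were seen. The shorter circle was named for its higher adult level, so the share is no separate support. DENND4A gave hardly any exon circRNAs (14 reads against 184).

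CEP350, which encodes a centrosomal protein, had the circRNA 16:62641877|62647503 with 5, 3 and 9 reads in young and 17, 27 and 14 in adult libraries. Its scaled level was 10.3 ± 2.51 against 34.2 ± 6.18, with no overlap (SD, n = 3, log2 difference 1.65, limma adjusted p = 0.0897). Members with reads only or nearly only in adults rested on fewer reads. The circRNAs of CARF (0, 0 and 0 in young, 9, 1 and 7 in adult libraries), DMXL2 (10, 4 and 1 in adult libraries) and PATJ (3, 1 and 8 in adult libraries) had no young read. That of FBL, a nucleolar methyltransferase, had 1 young read and 2, 3 and 19 adult reads, so adult replicate 3 carried most of them. None passed by limma (adjusted p = 0.0897 to 0.120). Those of CARF, DMXL2 and PATJ passed the filter through the adult libraries alone, so they had to differ and their p-values are no support. That of FBL was called higher by voom (adjusted p = 0.0278).

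**Figure D4:**
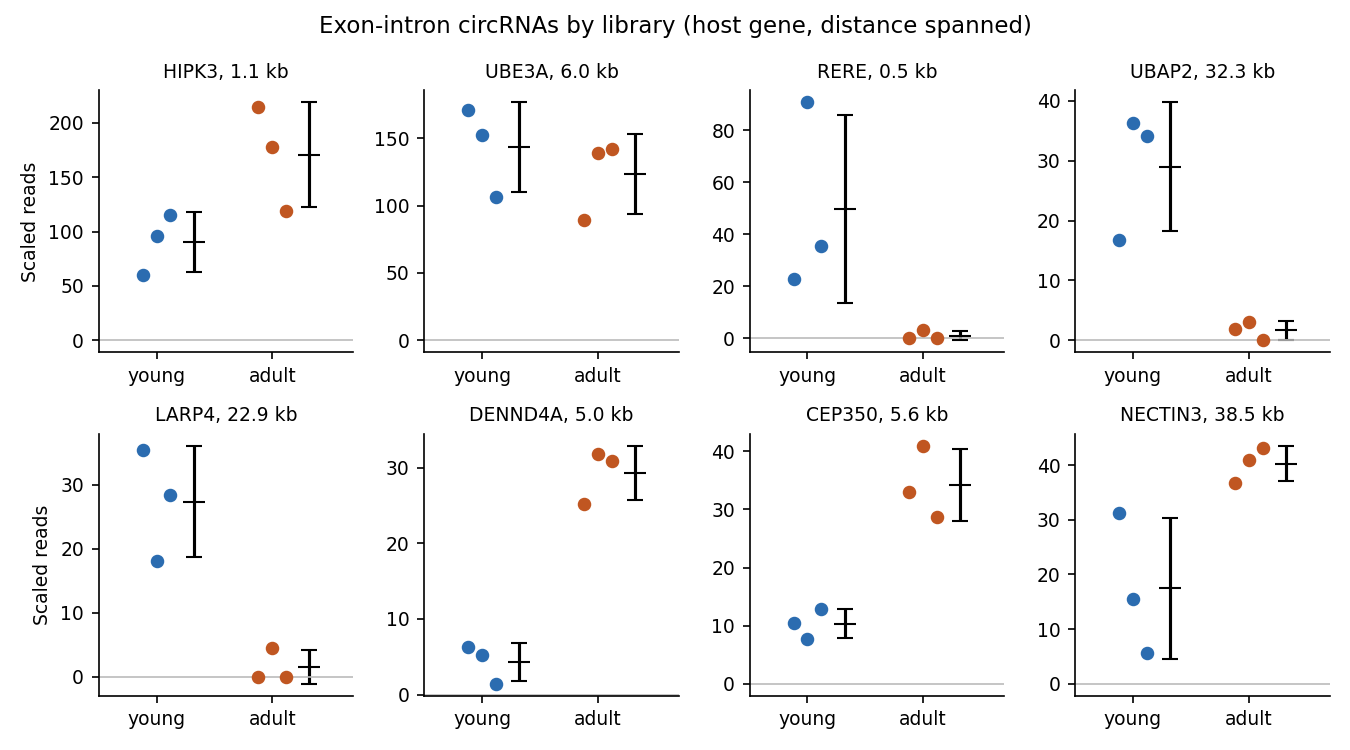
Scaled back-spliced reads of 8 exon-intron circRNAs in each library, titled by host gene and distance spanned. Points are libraries and bars the mean and SD of 3 libraries. The adult levels of RERE, UBAP2 and LARP4 are near 0, and those of DENND4A, CEP350 and NECTIN3 lie above all young levels.

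Many members shared a junction end, that is, a start or an end position. The 1145 circRNAs used 1804 distinct ends, and 692 members (60.4%, with 74.6% of the reads) used an end that another member used. Exon circRNAs reused ends in a like share (68.1%), but with both ends reused in 22.7% of them against 7.34% of exon-intron members. A start or an end was shared with an exon circRNA by 41.7% of members and neither was by 667 members.

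At 25 ends, 5 or more members came together, which made up 151 members and 1884 reads (25.7% of the reads of the class). These were 8 starts and 17 ends. At 24 of the 25 no exon circRNA used the position, the exception being that of TFDP2. Of all member ends, 76.3% were used by no exon circRNA, as were 74.4% of the ends that 1 member used. On the opposite side, exon circRNAs also used 71 of the 151 partner positions (47.0%). The type was set from the positions of the junction, so this contrast is not independent of it. The most used were the ends in TRIP12 and KIF27, with 9 members each.

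Summed over their members, 5 of the 25 ends were higher in adults with no overlap between groups and 3 were lower (exact permutation p = 0.1 each, adjusted p = 0.312). Of all ends used by 5 or more circRNAs of any type, 15.4% were higher and 16.5% lower in this way. Those lower included the ends of RERE and UBAP2. The UBAP2 end had 21, 24 and 42 reads in young and 1, 8 and 5 in adult libraries (55.2 ± 9.96 against 8.12 ± 5.43 scaled reads, SD, n = 3).

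Those higher were 2 ends of DENND4A and 1 end each of CEP350, FAM208B and ANKIB1. Their summed scaled reads went from 5.23 ± 0.999 to 36.4 ± 9.81 and from 24.6 ± 1.64 to 47.3 ± 9.59 in DENND4A. In CEP350 they went from 12.1 ± 3.02 to 37.9 ± 5.62, and in FAM208B from 10.02 ± 1.54 to 27.6 ± 1.11 (SD, n = 3). The ANKIB1 start, at 21.5 ± 9.70 and 33.3 ± 4.72, held a member that went the other way, 4:9471480|9471757, with 2, 5 and 8 reads in young and 0, 0 and 2 in adult libraries.

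**Figure D5:**
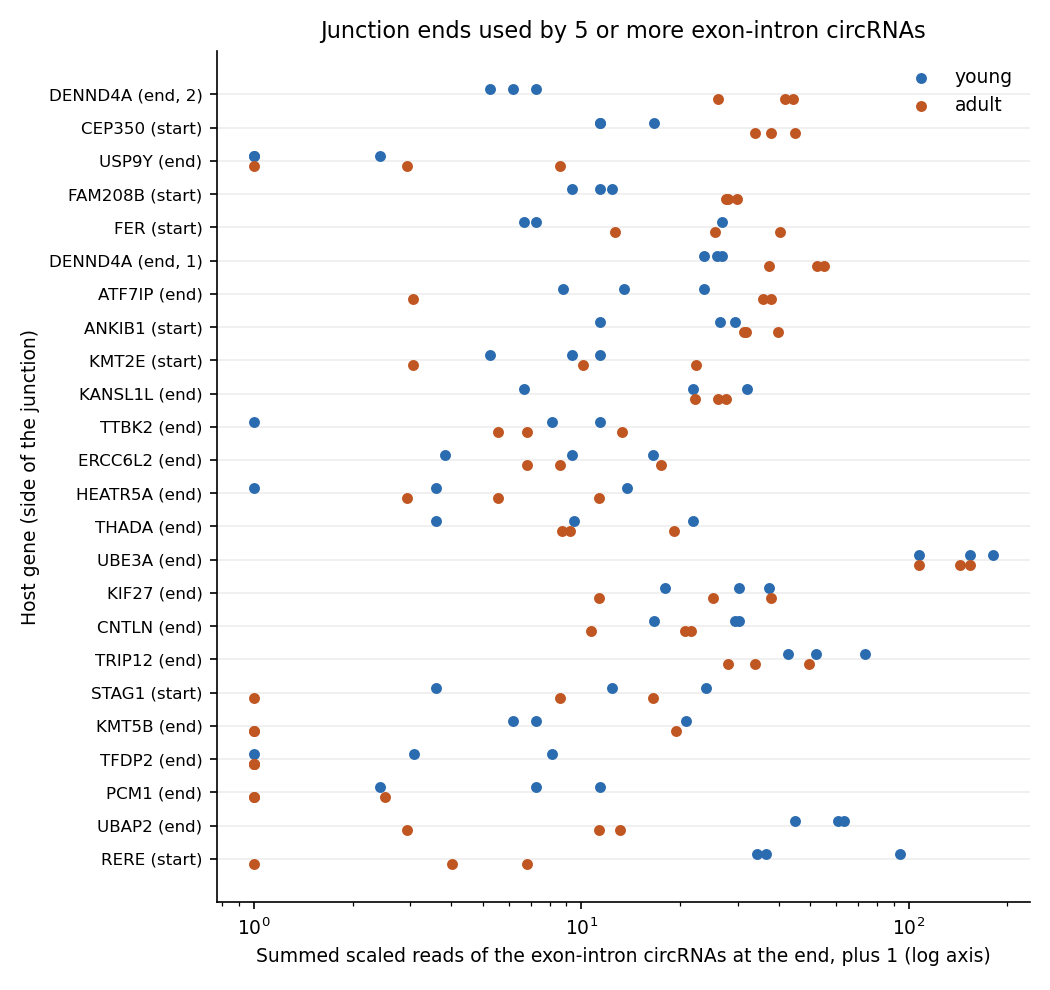
Summed scaled reads plus 1 (log axis) of the exon-intron circRNAs at 24 of the 25 junction ends used by 5 or more of them, by host gene and side of the junction. Each point is a library. Ends are ordered by the age difference of their means, from RERE at the bottom (54.1 young, 2.95 adult) to an end of DENND4A at the top (5.23 young, 36.4 adult).

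In 24 hosts, both circle types had enough reads to compare their balance (at least 30 exon-intron and 20 exon reads over the 6 libraries together, a choice made after seeing the data), although single libraries could have 0 reads of a type. The exon-intron share was higher in adults without overlap in 3 hosts (12.5% of the 24) and lower in 3 (12.5%), with an adjusted p of 0.4 for each. It was higher in CNTLN (39.2% in young, 66.1% in adult libraries), ZNF148 (68.7% and 92.3%) and CCSER2 (42.6% and 82.5%). Among those where it was lower were RERE and PDE3B (40.5% and 21.4%), whose enzyme degrades cyclic AMP under insulin control.

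In CNTLN, ZNF148 and CCSER2 the exon-intron circles themselves overlapped between groups. The exon circles of CNTLN had 23, 13 and 25 reads in young and 1, 15 and 9 in adult libraries, and after scaling the adult libraries were all below the young ones. Its exon-intron circles had 15, 11 and 12 reads in young and 10, 13 and 14 in adult libraries. The adult shares of ZNF148 and CCSER2 rest on few exon reads. In the adult libraries ZNF148 had 1, 3 and 0, and CCSER2 had 0, 1 and 5 beside 2, 5 and 9 exon-intron reads.

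The linear transcripts of the hosts differed with age about as often as others. Of 661 host transcripts tested, 65 (9.83%) were higher and 55 (8.32%) lower in adults, against 10.6% and 9.31% of all 14994 transcripts. Among the 60 members whose groups did not overlap, the host transcript passed for 11. It went the same way as the circRNA in 6 of these and the opposite way in 5.

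LARP4, FBL and EZH2 were among those that went opposite ways. The LARP4 transcript rose from 26.4 ± 5.58 to 47.3 ± 3.61 FPKM (log2 difference 0.84, limma adjusted p = 0.0327) while its circRNA was at 27.3 ± 8.71 and 1.52 ± 2.63 scaled reads. The FBL transcript fell from 32.7 ± 8.81 to 15.5 ± 3.07 FPKM (limma adjusted p = 0.0386). That of EZH2, the histone methyltransferase, fell from 3.60 to 1.32 FPKM (limma adjusted p = 0.0457), and its circRNA 4:112830052|112839778 had 3, 1 and 5 reads in adults only and so had to differ. Each of these 3 calls was lost in 5 of the 6 fits that left out 1 library (adjusted p up to 0.134, 0.120 and 0.154).

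CARF and NECTIN3 were among those that went the same way. Their transcripts rose from 8.66 to 15.1 FPKM and from 20.9 to 41.7 FPKM (limma adjusted p = 0.0280 and 0.0181). Leaving out 1 library gave adjusted p up to 0.111 in CARF, lost in 4 of 6 fits, and up to 0.0724 in NECTIN3, lost in 3 of 6.

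By function, the largest share of reads among the lists examined lay in the ubiquitin system, with 32 members of 10 hosts and 665 reads (9.06% of the class), mostly of UBE3A and TRIP12. Of its 9 tested members limma called none, 1 had an unadjusted p under 0.05, and voom called that 1 lower, the TRIP12 circRNA 2:118694710|118729424 with 7, 3 and 2 reads in young and none in adult libraries (limma adjusted p = 0.0897, voom adjusted p = 0.0253). This TRIP12 circRNA passed the filter through the young group alone, so it had to differ and the voom call is no support.

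Adipogenic transcription factors and cofactors had 17 members of 7 hosts, of which 3 were tested and that of RERE was called lower by limma and voom. The EBF1 circRNA 7:72478719|72503149, from an early transcription factor of fat cell development, had 4, 1 and 5 reads in young and 0, 0 and 1 in adult libraries (limma adjusted p = 0.185). Chromatin regulators had 39 members of 13 hosts and RNA-binding proteins 19 of 11, with no call by limma or voom among 4 and 2 tested (2 and 0 at an unadjusted p under 0.05). Those 2, in KMT2E (young reads only) and EZH2 (adult reads only), passed the filter through 1 group. They had to differ, so their unadjusted p is no support. Cytoskeleton and membrane linkage had 23 members, trafficking 15 and calcium handling 6, with no call by limma among 1, 5 and 1 tested (1, 1 and 0 at an unadjusted p under 0.05). Of these, voom called 1 member, that of DENND4A in the trafficking list, as higher.

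The lists of lipid handling held few members, and few exon circRNAs too. Fatty acid and triglyceride synthesis had 1 member with 1 read, in ACSL4 (0.0873% of members against 0.426% of exon circRNAs). Cholesterol and sterol control had 7 members with 20 reads (0.611% against 0.316%). Lipid uptake, storage and lipolysis had none, which allows a share of up to 0.262%, and the 8 exon circRNAs of this list were 0.0587% of theirs. The extracellular matrix list had 3 members (0.262%) against 1.60% of exon circRNAs.

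None of the 7 lists of cell type markers held a host of an exon-intron circRNA. Symbols of transcripts came from circRNA hosts, so a marker gene without a circRNA could not be looked up, whatever its level. Transcripts of 14 of the 39 marker genes could be found in this way. Their FPKM summed by list did not overlap between the groups, but limma called only some of the transcripts. The adipocyte markers CIDEC and LPL, 2 of 8, summed to 248 to 1188 in young and 2115 to 3978 in adult libraries. The macrophage markers, 3 of 5, summed to 177 to 201 in young and 60.6 to 97.2 in adult libraries. THY1, the stromal marker found, was at 179 to 253 and 53.6 to 90.7, the smooth muscle and pericyte markers, 2 of 6, at 43.6 to 136 and 16.9 to 26.4, and the endothelial markers, 5 of 6, at 143 to 276 and 299 to 353. PTPRC of lymphocytes was at 4.28 to 28.7 and 2.43 to 3.54. Of the transcripts tested, limma called 1 of 2 adipocyte and 1 of 5 endothelial ones higher in adults. It called 2 of 5 macrophage ones, 1 of 2 smooth muscle and pericyte ones and that of THY1 lower, and that of PTPRC neither way. Of all transcripts, 10.6% were called higher and 9.31% lower. No skeletal muscle marker could be looked up, so muscle RNA was not assessed. The part of these cell types in the age differences of the circRNAs was not tested.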

How the data were processed

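Back fat under the skin of 3 young Chinese buffaloes, aged 6 months, and 3 adult ones, aged 30 months, gave 1 rRNA-depleted RNA library per animal. Reads were trimmed by the authors with Trim Galore and aligned to the cattle genome UMD3.1 by STAR with 6% mismatch allowed. Back-spliced junctions were called by the authors with CIRCexplorer2. The labels also name TopHat2 2.0.14 and Cufflinks without a role.

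The deposited circRNA values are log2(scaled back-spliced reads + 1), and the deposited mRNA values are log2(FPKM + 1), both made by the authors. Removing the log and dividing by the smallest nonzero value of a library gave whole reads for 100% of values (relative tolerance 1e-06). Scaled reads are the deposited values with the log removed, in which 1 read counts for 1.42 to 2.59 by library. The methods name a level relative to mapped reads, and how it relates to this scale is not stated. Intervals and floors cover counting error only, and the depth behind FPKM is unknown. Columns with the authors' group means, fold changes, p-values and FDR were not used, nor were the lncRNA table and the lists of differentially expressed RNAs.

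Adult and young libraries were compared in R 4.3.3 by limma 3.58.1, using eBayes with its trend option, over the circRNAs of any type that 3 or more of the 6 libraries held, and over Ensembl transcripts whose FPKM averaged 0.5 or more. The pseudocount was 1, the adjustment Benjamini-Hochberg and the threshold 0.05. The main test used the deposited log2 scale, and voom on the recovered reads was an alternative. For 1 value a library, two-sided exact permutation tests were run, whose smallest p is 0.1 for 3 against 3 libraries and 0.03125 for 6 within-library differences. The fits were tested on simulated data. Where all libraries of a group had 0 reads, folds were taken against 3 reads over the group. Symbols of transcripts came from the host columns of the circRNA table.

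Members and gene lists were chosen with earlier results of these data known. The rule for named circRNAs took those past the adjusted p, the 10 with the most reads, the 5 higher and 5 lower without overlap with the largest log2 change, the 3 longest and 3 shortest in at least 3 libraries, up to 4 per gene list, and the host genes with the most members. Other members were named after their values were seen, at shared ends and among host genes. Alternatives changed the pseudocount, filter, normalization, variance model, depth and replicate block, and left out each library in turn. Results of some genes are not reported here. Same-numbered young and adult libraries were not taken as pairs.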

Additional observations from a re-analysis of the deposited data

How the results depend on the processing

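The numbers of called members were few and moved with the settings. Against 0 members higher and 2 lower, the pseudocount of 0.5 gave 0 lower, no filter 4 lower, a filter of 2 libraries 1 higher and 9 lower, a filter of 4 libraries 2 higher and 5 lower, an equal total per library 1 lower, no trend 10 lower and voom 8 higher and 20 lower. Leaving out 1 library gave 0 to 2 higher and 0 to 3 lower. Over all circRNAs that a setting tested, the main fit called 3 higher and 22 lower, and the pseudocount of 0.5 gave 0 and 3. No filter gave 13 and 39 of 14990 tested, a filter of 2 libraries 20 and 70 of 5300, and a filter of 4 libraries 31 and 54 of 1609. Members among those tested numbered 1145, 433 and 146. Equal totals gave 3 and 8, no trend 4 and 79, voom 68 and 187, and the replicate block 27 and 107. The main fit, the pseudocount of 0.5 and these settings each tested 2834 circRNAs, 251 of them members. Without a filter, with 4 libraries and without any young library with the filter redone, limma's prior degrees of freedom were infinite, so that a circRNA's own spread did not enter its p. With the replicate block (14225) and the filter of 2 libraries (829) they were so large that this spread hardly entered. Same-numbered libraries were not pairs (r = 0.0361, 0.0222 and 0.0226 for circRNAs, although each library correlated best with its own number, and −0.0658, −0.0312 and −0.122 for mRNA). With the replicate number as a block, 2 members were higher and 10 lower, and 23 host transcripts were higher and 20 lower against 65 and 55. Leaving out 1 library gave 15 to 80 host transcripts higher and 12 to 53 lower.

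Without the HIPK3 and UBE3A circRNAs, left out after seeing the data, the gap in the share of reads was 0.931 percentage points and the difference in reads per circRNA reversed to −0.0698. With 5 libraries the within-library tests cannot reach the threshold. The differences were then 0.273 to 0.364 reads per circRNA, 6228 to 7050 bases of span, −3.59 to −2.72 percentage points seen in no other library and −9.53 to −9.07 percentage points with the published mark. The age gaps in the exon-intron share kept their direction in every alternative run, at 0.948 to 1.02 percentage points of distinct circRNAs and 0.931 to 1.51 of reads. At this depth, 894 of 1145 members had reads in fewer than 3 libraries and were not tested, and a filter of 2 libraries tested 433.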
